A study of Homo sapiens with 17 samples.

Results

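Ribo-STAMP values of 8 genes known as immediate early genes or for short-lived mRNAs were examined: JUN, JUNB, JUND, FOS, EGR1, IER2, MYC and MCL1. They were chosen by gene name, with earlier results of these data known. All 8 were found among the 18869 genes of the table, of which 13473 were protein-coding. The study asked how strongly ribosomes contact mRNAs that are held by nuclear poly(A) binding protein (PABPN) or by cytoplasmic poly(A) binding protein (PABPC). It used HEK293T cells, an established human embryonic kidney line, with a lentiviral construct switched on by doxycycline. RPS2-STAMP cells carried the cytidine deaminase APOBEC1 fused to the small ribosomal subunit protein RPS2, and Control-STAMP cells carried APOBEC1 alone. All cells, controls included, received 50 ng/ml doxycycline for 24 h and were crosslinked with formaldehyde. RNA was sequenced from the Input lysate, from an immunoprecipitate of PABPN (PABPN IP) and from one of PABPC (PABPC IP), after ribosomal RNA had been depleted. The paper describes Input and IPs as made from the cytoplasmic part of fractionated cells, whereas the sample labels state no fractionation. There were 17 samples. RPS2-STAMP had 3 samples in each of the 3 fractions, and Control-STAMP had 3 Input, 3 PABPN IP and 2 PABPC IP samples. The fusion was made from an added construct, so the edits record contacts of tagged subunits.

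Each gene had 1 normalized EPKM per fraction, which counts C-to-U edits per kilobase, scaled to the reads of the library, after the authors subtracted editing in the control condition. It also had 1 average TPM per fraction. Values given with PABPC or with PABPN are those of the respective IP. Values of single samples were not analysed here, so no value carries an SD or a test, and no difference between fractions has a replicate check. The number of edits behind each EPKM is unknown. All values are averages over cultures, so more cells with an mRNA and more of that mRNA per cell cannot be told apart. As a background, 9607 protein-coding genes were used whose TPM was 5 or more in each IP. Of the 8 genes, 6 passed this filter, and FOS and EGR1 did not.

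Immediate early genes are transcribed within minutes of a stimulus without new protein synthesis, and many of their mRNAs are degraded soon after they reach the cytoplasm. AU-rich elements in the 3′ UTR, often built from repeats of a short pentamer, recruit proteins that speed up removal of the poly(A) tail and decay. JUN, JUNB, JUND and FOS encode subunits of the transcription factor AP-1, EGR1 encodes a zinc finger transcription factor, IER2 a nuclear regulator, MYC a growth-promoting transcription factor and MCL1 a short-lived survival protein of the BCL2 family.

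The label rests on prior knowledge, since mRNA half-lives were not measured in these samples. The cells had the markers of their line only in part. Of 9 genes listed as HEK293T markers, all 9 were in the table and 6 passed the TPM filter. VIM was the most abundant of them, at a TPM of 184 in the Input, and PAX2 (0.797) and LHX1 (0.913) were below 1. Of 9 markers of other lineages, APOA1 alone was in the table, with an Input TPM of 0.402. The nuclear noncoding RNA NEAT1 had a TPM of 4.27 in the Input, 3.25 with PABPC and 55.8 with PABPN. MALAT1, another nuclear RNA, had 55.0, 10.3 and 208 in the same order. Both nuclear RNAs were thus most abundant in the PABPN IP and least abundant in the PABPC IP.

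AU-rich elements were sought in the 3′ UTR of the canonical transcript of each gene in GENCODE release 44 on hg38, on the mRNA strand only. The motifs were the pentamer ATTTA and the nonamer TTATTTATT, which contains a pentamer that was also counted as such. The windows below hold 30 bases of 3′ UTR with the most pentamers in each mRNA, and are shown because the pentamer is the element searched for in these mRNAs. Capitals mark pentamers, and each sequence reads 5′ to 3′ on the mRNA.
JUN: attccagaaaggatATTTAagaaaatacaa
JUNB: taatatatttgtgtATTTAacagggagggg
JUND: ttcgattctgccctATTTAtgtttctactc
FOS: attgtgtttttaATTTATTTAttaagatgg
EGR1: aactgaaaatgtaaATTTAtaaatatattc
MCL1: tgacctaATTTAactggtgaaATTTAaagt
On hg38 the JUN window lies at chr1:58781337-58781366 on the minus strand and the JUNB window at chr19:12793058-12793087 on the plus strand. The JUND window lies at chr19:18279999-18280028 on the minus strand and the FOS window at chr14:75282056-75282085 on the plus strand. The EGR1 window lies at chr5:138469062-138469091 on the plus strand and the MCL1 window at chr1:150576218-150576247 on the minus strand. All 6 windows are exonic and lie inside the 3′ UTR. The FOS window holds 2 overlapping pentamers and the nonamer, and FOS was the only one of the 8 with a nonamer. No window is shown for MYC, and IER2 had no pentamer.

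The 3′ UTRs differed widely in length and in pentamers. MCL1 had the longest, with 2817 bases and 10 pentamers, followed by MYC with 1993 bases and 6 pentamers. FOS had 5 pentamers in 806 bases, or 6.20 per kilobase, a density above that of 95.2% of the background. JUN had 3 pentamers in 1284 bases, JUNB 2 in 500, JUND 1 in 747 and EGR1 1 in 1222. IER2 had none in 1053 bases. Pentamers are common in human 3′ UTRs of these lengths, and 73.6% of the background had at least 1. Among 3′ UTRs within 1.5-fold of the length of that of FOS, 70.2% had a pentamer and 5.57% a nonamer. Among those within 1.5-fold of the length of that of IER2, 78.9% had a pentamer. The density of JUNB exceeded that of 84.7% of the background, that of MCL1 79.6% and that of MYC 72.4%, so that FOS stood furthest out of the 8.

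**Figure D1:**
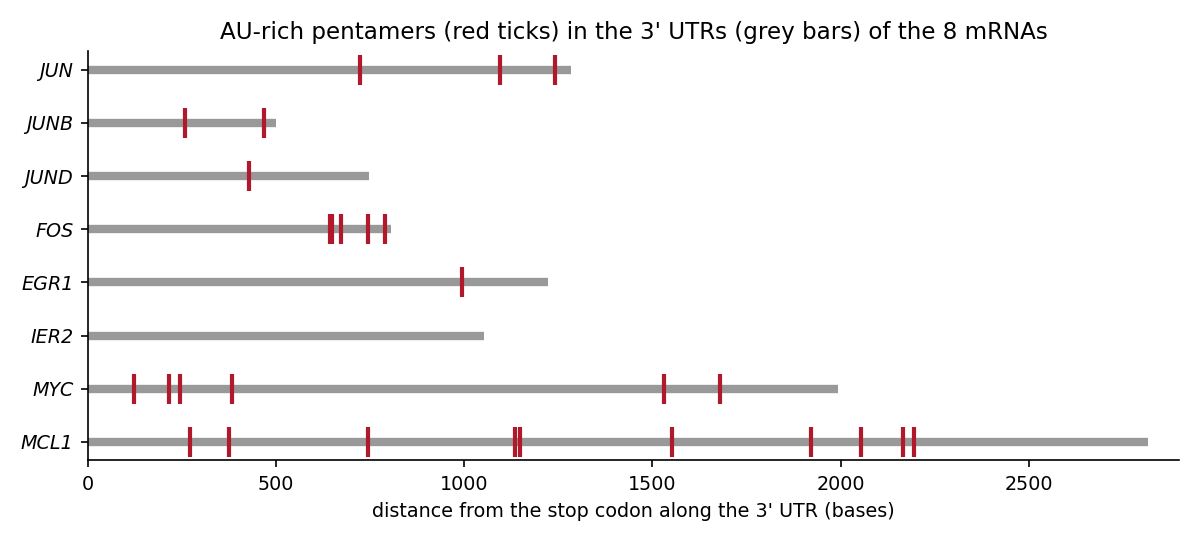
Positions of AU-rich pentamers (red ticks) along the 3′ UTR (grey bar) of each canonical transcript, with the distance from the stop codon in bases on the horizontal axis. FOS carries 5 pentamers between bases 644 and 790 of its 806-base 3′ UTR, MCL1 carries 10 spread over 2817 bases, and IER2 carries none.

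The canonical transcripts of the 8 genes had 1 to 4 exons. JUN (ENSG00000177606, chr1:58776845-58784048), JUNB (ENSG00000171223, chr19:12791486-12793315) and JUND (ENSG00000130522, chr19:18279694-18281622) had canonical transcripts of 1 exon. IER2 (ENSG00000160888, chr19:13150411-13154911) and EGR1 (ENSG00000120738, chr5:138465479-138469303) had 2 exons. MYC (ENSG00000136997, chr8:127735434-127742951) and MCL1 (ENSG00000143384, chr1:150560895-150579738) had 3, and FOS (ENSG00000170345, chr14:75278826-75282230) had 4. In the background, 201 of the 9601 genes found in the annotation had 1 exon. Cytosines, the bases that APOBEC1 edits, made up 36.2% of the JUND transcript and 33.7% of that of JUNB, more than in 99.1% and 95.7% of the background. The MCL1 transcript had 20.6% cytosine, the lowest of the 8, and the background median was 23.7%. The chance of an edit per kilobase can differ with this share, and its part in the EPKM was not tested.

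Overlapping genes bear on some of these values. In GENCODE release 44, the annotation used here, all exonic bases of JUNB lie under HOOK2 on the opposite strand. In the same release, 30.4% of the exonic bases of MYC lie under CASC11, and 53.2% of those of IER2 lie under an unnamed gene. The authors counted on an annotation made from an earlier GENCODE release, where these overlaps can differ. The libraries were stranded and the authors dropped regions shared by genes before counting, but the use of strand in either step is not given in the sources used here. How much of these 3 genes was left for counting is therefore unknown. JUNB had a TPM of 10.3 in the Input, 15.3 with PABPC and 27.4 with PABPN, so not all of it was dropped. The other 5 had no overlapping gene in release 44.

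JUN, the founding subunit of AP-1, was the only one of the 8 with editing above 0 in every fraction, a pattern found in 50.5% of the background. Its EPKM was 0.0289 in the Input, 0.0636 with PABPC and 0.152 with PABPN. Its TPM was 79.0, 85.8 and 227 in the same order. Both measures were highest in the PABPN IP, where the JUN EPKM exceeded that of 93.4% of the background and the TPM that of 95.6%. The EPKM was 2.38-fold higher in the PABPN IP than in the PABPC IP, and the TPM was 2.65-fold higher.

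JUNB, a JUN paralog that often acts in opposition to it, was listed at 0 in the Input and with PABPC, and its EPKM with PABPN was 0.181. That value exceeded the PABPN IP value of 95.8% of the background. Its TPM was 10.3 in the Input, 15.3 with PABPC and 27.4 with PABPN. These TPM are below the background medians of 15.8, 28.9 and 38.4. JUNB thus had editing listed in the PABPN IP alone, a pattern shared by 3.24% of the background.

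JUND, the JUN paralog that is made more steadily, had the opposite pattern. Its EPKM was 0.139 in the Input and 0.155 with PABPC, and it was listed at 0 in the PABPN IP. Its TPM was 82.0 in the Input, 191 with PABPC and 127 with PABPN. JUND was the only one of the 8 with more TPM in the PABPC IP than in the PABPN IP. The JUN genes thus split in both measures, with JUN and JUNB higher in the PABPN IP and JUND higher in the PABPC IP.

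FOS, the partner of the JUN proteins in AP-1, was scarce. Its TPM was 1.17 in the Input, 1.68 with PABPC and 3.17 with PABPN. It was listed at an EPKM of 0 in the Input and the PABPC IP and had 0.0413 in the PABPN IP. The editing was therefore listed in the same single fraction as that of JUNB, at a TPM below the filter.

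EGR1 was equally scarce, with a TPM of 1.25 in the Input, 1.76 with PABPC and 4.32 with PABPN. Its EPKM was listed at 0 in the Input, at 0.00480 with PABPC and at 0.0188 with PABPN. These are low values in every fraction, and the PABPN IP value exceeded that of 39.8% of the background.

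IER2 had the highest EPKM of the 8 in any fraction. It was listed at 0 in the Input, at 0.0181 with PABPC and at 0.197 with PABPN, which exceeded the PABPN IP value of 96.8% of the background. Its TPM was 16.8 in the Input, 30.1 with PABPC and 64.6 with PABPN. The EPKM was 10.8-fold higher in the PABPN IP than in the PABPC IP, against 2.15-fold for the TPM. IER2 has no pentamer in its 3′ UTR. The highest PABPN IP value of the 8 and the highest pentamer number lay in different genes. A link between pentamers and editing was not tested.

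MYC resembled JUND rather than JUN in the order of its editing. Its EPKM was 0.0123 in the Input and 0.0948 with PABPC, and it was listed at 0 in the PABPN IP. Its TPM was 81.9 in the Input, 109 with PABPC and 119 with PABPN, so that abundance differed little between the IPs. The PABPC IP EPKM was 7.70-fold that of the Input and exceeded the PABPC IP value of 73.2% of the background.

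MCL1 was the only one of the 8 with its highest EPKM in the Input. The values were 0.174 in the Input, 0 with PABPC and 0.0730 with PABPN. Its TPM was 73.9 in the Input, 126 with PABPC and 140 with PABPN. The Input EPKM exceeded that of 91.4% of the background, yet an mRNA at a higher TPM in the PABPC IP was listed there at 0. Such gaps were not limited to these genes. The glycolytic mRNA ALDOA, with a TPM of 987 in the PABPC IP, was also listed at 0 there, and TPI1 was listed at 0 in the PABPN IP at a TPM of 690. A listed 0 is therefore given only as such, since the handling of values below the control is not stated.

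**Figure D2:**
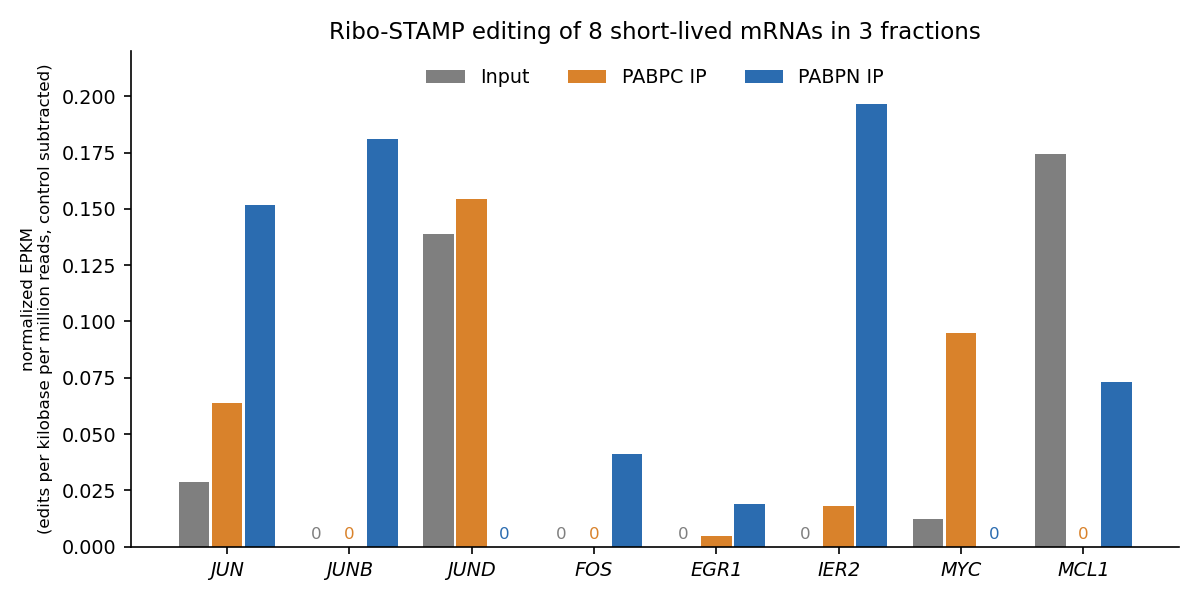
Normalized EPKM (vertical axis, edits per kilobase scaled to the reads of the library, after control subtraction) of each gene in the Input (grey), PABPC IP (orange) and PABPN IP (blue). Each bar is 1 pooled value without an error, and a printed 0 marks a value listed at 0. The PABPN IP bar is the tallest for JUN, JUNB, FOS, EGR1 and IER2, the PABPC IP bar for JUND and MYC, and the Input bar for MCL1.

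In the order of PABPN IP editing, IER2 (0.197) was followed by JUNB (0.181), JUN (0.152), MCL1 (0.0730), FOS (0.0413) and EGR1 (0.0188), with JUND and MYC at 0. In the PABPC IP the order was JUND (0.155), MYC (0.0948), JUN (0.0636), IER2 (0.0181) and EGR1 (0.00480), with JUNB, FOS and MCL1 at 0. Which neighbours in these orders differ beyond error is unknown without replicate values. The 3 genes highest in the PABPN IP were thus at or below 0.0636 in the PABPC IP. The 2 genes highest in the PABPC IP were at 0 in the PABPN IP.

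Taken by count, 6 of the 8 genes had a higher EPKM in the PABPN IP than in the PABPC IP. This direction was shown by 37.4% of the background and 40.1% of all protein-coding genes. The other 2, JUND and MYC, were higher in the PABPC IP, as were 56.4% of the background and 50.5% of all protein-coding genes. Among the 6 genes that passed the TPM filter, 4 were higher in the PABPN IP. All background shares here and below cover genes past this filter unless stated, while counts out of 8 include FOS and EGR1, which are not past it. On the log2(EPKM + 0.01) scale, JUN, JUNB, FOS, IER2 and MCL1 favoured the PABPN IP by 2-fold or more, against 21.1% of the background. JUND and MYC favoured the PABPC IP by as much, against 36.3%. With a pseudocount of 0.1 these counts were 2, against 3.71% of the background, and 1, against 9.00%.

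Values listed at 0 carried much of this count. JUNB, FOS and MCL1 were at 0 in the PABPC IP and above 0 in the PABPN IP. This was the pattern of 11.3% of the background and 15.3% of all protein-coding genes. JUND and MYC showed the reverse, as did 21.0% of the background. JUN, EGR1 and IER2 were above 0 in both IPs, and all 3 were higher in the PABPN IP, against 42.4% of the 5914 background genes above 0 in both. In the Input, JUNB, FOS, EGR1 and IER2 were listed at 0. This was so for 21.9% of the background and 32.1% of all protein-coding genes. These 4 were also the 4 with the lowest Input TPM of the 8.

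The median EPKM of the 8 genes was 0.00616 in the Input, 0.0115 with PABPC and 0.0572 with PABPN. The background medians were 0.0273, 0.0501 and 0.0334 in the same order. The order of the IPs was therefore turned around between the 8 genes and the background. With means in place of medians, the 8 genes had 0.0443 in the Input, 0.0420 with PABPC and 0.0828 with PABPN, so that the PABPN IP remained the highest while the Input and the PABPC IP lay close together. Among the 6 genes past the filter the medians were 0.0206, 0.0409 and 0.112, still with the PABPN IP highest.

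EPKM counts edits against all reads of a library, so an abundant mRNA can collect more. Across the 9607 background genes, which are not independent replicates, Spearman's rho between TPM and EPKM was 0.531 in the Input, 0.452 with PABPC and 0.245 with PABPN. EPKM was therefore also divided by TPM, a scale chosen after the values had been seen. Per 100 TPM, the background median was 0.161 EPKM in the Input, 0.138 with PABPC and 0.0704 with PABPN.

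On this scale JUN changed sides by a small margin, with 0.0741 EPKM per 100 TPM with PABPC and 0.0668 with PABPN. The background median fell further, from 0.138 with PABPC to 0.0704 with PABPN. JUN was higher in the PABPN IP in both EPKM and TPM, and the part of abundance in its EPKM was not tested. IER2 kept its direction, with 0.0603 per 100 TPM with PABPC and 0.304 with PABPN. JUNB, at 0.661 in the PABPN IP, was also above the background median, and MCL1, at 0.0520 there and 0.236 in the Input, was below it in the PABPN IP. JUND had 0.169 in the Input and 0.0809 with PABPC, and MYC had 0.0150 and 0.0870 in the same order. MYC mRNA in the Input was thus edited little for its abundance. EGR1 had 0.273 with PABPC and 0.435 with PABPN, but at a TPM below 5 such ratios rest on very small values. In all, 5 of the 8 genes, and 3 of the 6 past the filter, were higher per TPM in the PABPN IP, against 34.4% of the background.

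The TPM of the fractions, each the sum of exonic and intronic TPM, described which RNAs each IP recovered, unspliced RNA included. All 8 had more TPM in either IP than in the Input, and so did most genes. The median background gene had a log2 TPM ratio of 1.10 between the PABPN IP and the Input and of 0.95 between the PABPC IP and the Input, with 0.5 TPM added to each value. Ratios were therefore taken relative to this median gene, and a gene past 0.5 or -0.5 was counted as higher or lower than the median gene.

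**Figure D3:**
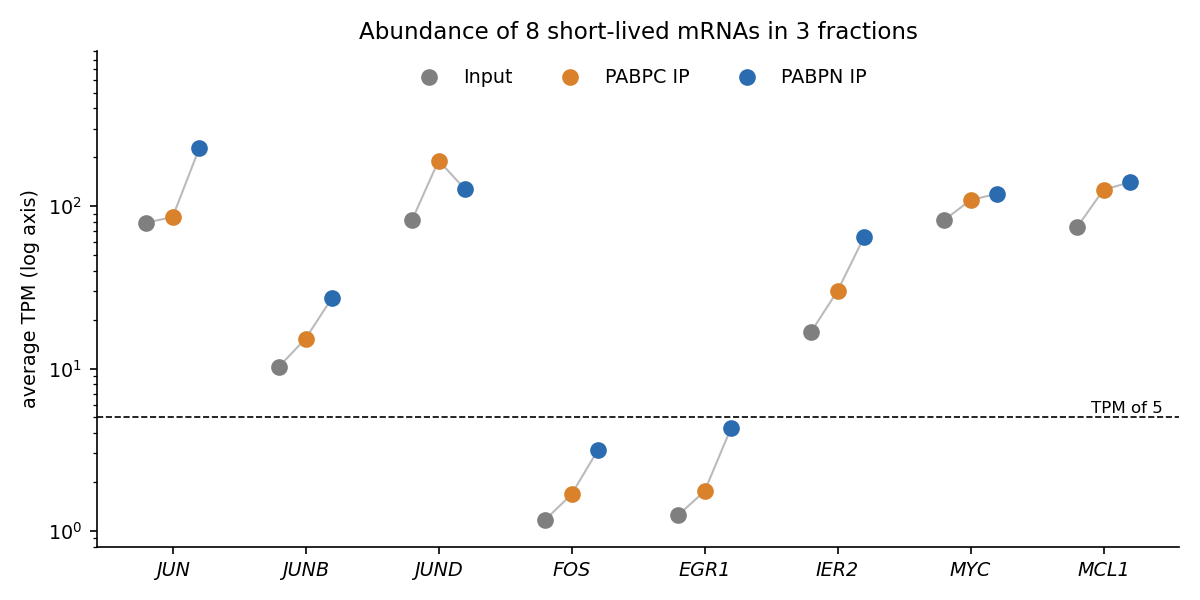
Average TPM (vertical axis, log scale) of each gene in the Input (grey), PABPC IP (orange) and PABPN IP (blue), with a dashed line at a TPM of 5. JUND alone has its highest TPM in the PABPC IP (191), and FOS and EGR1 lie below 5 in all 3 fractions.

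For the PABPN IP over the Input, IER2 was the only one of the 8 above the threshold, at 0.81, against 23.7% of the background. MYC was the only one below -0.5, at -0.56, against 20.6%. JUN (0.41), EGR1 (0.36), JUNB (0.27) and FOS (0.04) lay above the median gene without passing 0.5, and MCL1 (-0.18) and JUND (-0.48) lay below it. JUND also passed -0.5 with each of 3 other sets for the centring, EGR1 passed 0.5 with a pseudocount of 0.1 TPM, and with a threshold of 1 none of the 8 passed. FOS fell just below the median gene with each of those 3 sets, and to -0.13 with a pseudocount of 1 TPM. Without centring, all 8 passed 0.5 and none was below -0.5, as against 84.1% and 0.583% of the background, and MYC was at 0.54.

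For the PABPC IP over the Input, none of the 8 was above the threshold, as were 9.02% of the background. JUN (-0.84), EGR1 (-0.58), FOS (-0.56) and MYC (-0.54) were below it, against 17.4%. Past the filter these were JUN and MYC, 2 of 6, and over all protein-coding genes the share was 27.7%. Centred on every protein-coding gene JUN alone was below, centred on those with a TPM of at least 1 JUN and EGR1 were, with a pseudocount of 0.1 TPM FOS was not, and with a threshold of 1 none was. JUN lay above 6.75% of the background in this ratio. JUNB (-0.40), MCL1 (-0.19) and IER2 (-0.13) were also below the median gene, and JUND (0.26) was the only one above it. These directions hold relative to the median gene. Without centring JUN was at 0.12, EGR1 at 0.37, FOS at 0.39 and MYC at 0.41, and 4 of the 8 passed 0.5, against 80.2% of the background.

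Set directly against each other, the IPs separated the genes further. In the PABPC IP over the PABPN IP, JUN (-1.21), EGR1 (-0.91), IER2 (-0.90), JUNB (-0.63) and FOS (-0.56) were lower than the median gene by more than 0.5, against 31.1% of the background. Past the filter these were 3 of 6, and over all protein-coding genes the share was 37.7%. JUND (0.78) was the only one higher by more than 0.5, against 29.9%. MYC (0.06) and MCL1 (0.04) sat at the median gene. The same 5 and JUND passed the threshold without centring, where the median gene was at -0.19. Centred on every protein-coding gene, JUNB and FOS no longer passed. FOS also did not pass when centred on protein-coding genes with a TPM of at least 1, or with a pseudocount of 1 TPM. With a threshold of 1 JUN alone passed. The ratios of FOS and EGR1 come from TPM below 5 and shift with the pseudocount.

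**Figure D4:**
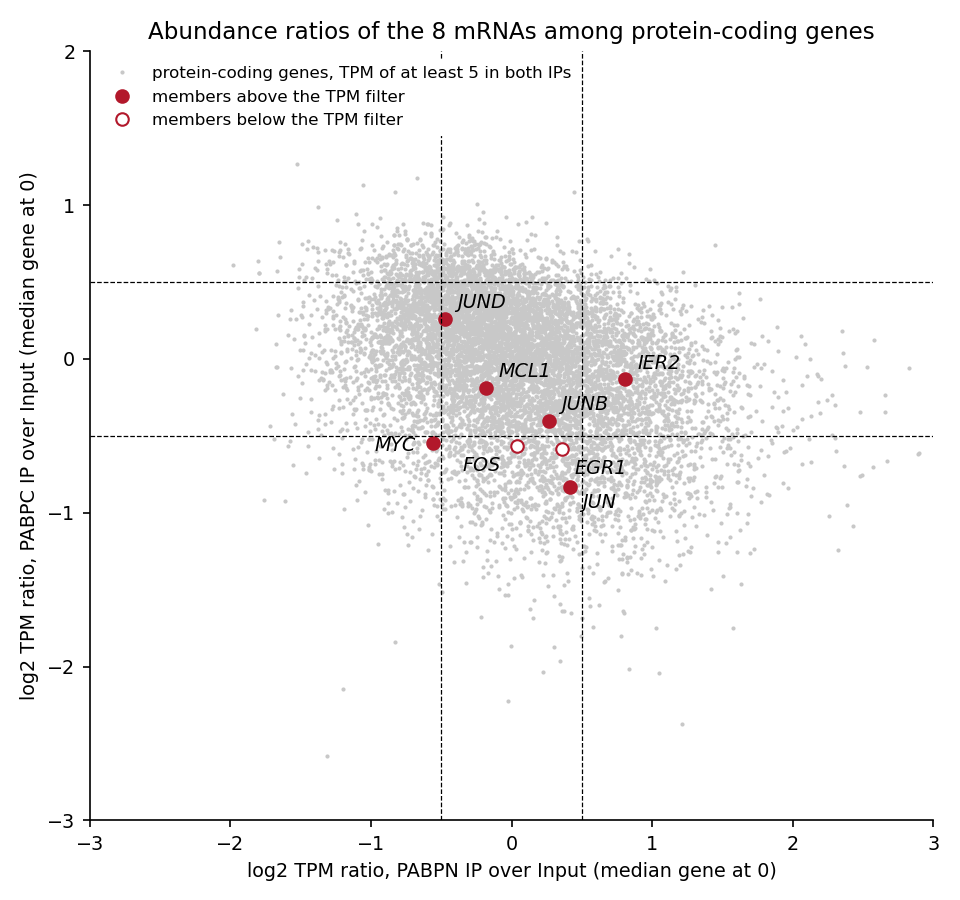
Log2 TPM ratio of the PABPN IP over the Input (horizontal axis) and of the PABPC IP over the Input (vertical axis), each with the median gene at 0, for 9607 protein-coding genes (grey) and the 8 genes (red, open for the 2 below the TPM filter). Dashed lines mark 0.5 and -0.5, and 40 genes lie outside the axes. JUN, EGR1, FOS and MYC sit low on the vertical axis, with MYC also to the left. IER2 lies furthest right of the 8, and JUND in the upper left.

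Editing and abundance did not always point to the same IP. JUN, JUNB, FOS, EGR1 and IER2 were higher in the PABPN IP in both EPKM and TPM, and JUND was higher in the PABPC IP in both. MYC had a slightly higher TPM in the PABPN IP, at 1.10-fold, but its EPKM was above 0 in the PABPC IP alone of the IPs. MCL1 had a TPM 1.11-fold higher in the PABPN IP, and its EPKM was above 0 in the PABPN IP alone of the IPs.

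Related genes were described for comparison, and their counts cover genes past the TPM filter. Of 11 other AP-1 and ATF genes, 10 were in the table and 6 passed. In EPKM, 4 were higher with PABPC and 2 with PABPN, beside 56.4% and 37.4% of the background. Without the filter 4 and 4 were, beside 50.5% and 40.1% of all protein-coding genes. ATF2, an AP-1 partner, had 0.176 with PABPC and 0.0923 with PABPN, and the small MAF gene MAFG had 0.130 and 0.0423. ATF3, itself an immediate early gene, was listed at 0 in the Input and with PABPC and at 0.0354 with PABPN, the pattern of JUNB and FOS. In TPM, 3 of the 6 were lower than the median gene in the PABPC IP over the PABPN IP and none was higher, beside 31.1% and 29.9% of the background, with MAFG lowest at -1.32.

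Of 48 other immediate early or short-lived mRNAs, 46 were in the table and 33 passed the filter. In EPKM, 13 were higher with PABPC and 12 with PABPN, beside 56.4% and 37.4% of the background. The others were equal, and the median difference was 0. The median gene of the background lay at 0.0108 EPKM in favour of the PABPC IP, and the median of the 6 filtered genes at -0.0805. Without the filter 15 of the 46 were higher with PABPC and 23 with PABPN, beside 50.5% and 40.1% of all protein-coding genes. The median difference was then -0.00123 EPKM. The balance of this wider list thus moved with the filter. It held genes on both sides. The cyclin gene CCND1 had 0.0631 with PABPC and 0.318 with PABPN. NFKBIA, the inhibitor of NF-kB, was listed at 0 and 0.247, and ZFP36L1, which binds AU-rich elements, had 0.0800 and 0.237. In the other direction, TOB2, which recruits deadenylases, had 0.175 with PABPC and 0.0167 with PABPN, and SRF, the activator of many immediate early genes, had 0.159 and 0.00973. In TPM, 13 of the 33 were lower than the median gene in the PABPC IP over the PABPN IP and 5 were higher, beside 31.1% and 29.9%, with a list median of -0.22. The lowest was ZFP36L1 at -1.26 and the highest ID3 at 0.82. In the Input, 15 of the 33 were listed at 0, as were 2 of the 6 filtered genes of the first list and 21.9% of the background.

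MYC works in a network of partners and antagonists. Of 11 listed, 10 were in the table and passed, and 7 had a higher EPKM in the PABPC IP, beside 56.4% of the background. MXI1, an antagonist of MYC, had 0.119 in the PABPC IP and was listed at 0 in the PABPN IP, as MYC was. MLX had 0.0817 and 0. MNT, another antagonist, went the other way with 0.0197 with PABPC and 0.0931 with PABPN. In TPM, MAX, the obligate partner of MYC, was at 0.78 in the PABPC IP over the PABPN IP, and MGA was the lowest of the list at -2.25, so the network spanned the range around MYC.

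Of 16 other BCL2 family genes, 15 were in the table and 12 passed. In TPM between the IPs, 7 genes were higher and 2 lower than the median gene, beside 29.9% and 31.1% of the background. The list median was 0.67, while MCL1 was at 0.04. BAD, which promotes cell death, was the highest at 1.07, and BCL2L11, which also promotes it, the lowest at -1.23. In EPKM, 5 were higher with PABPC and 7 with PABPN, beside 56.4% and 37.4% of the background. Without the filter 8 and 7 were, beside 50.5% and 40.1% of all protein-coding genes. BCL2L2 (0 with PABPC and 0.112 with PABPN) shared the direction of MCL1, and BCL2L1 had 0.0431 and 0.126. BAD had 0.186 in the PABPC IP and was listed at 0 in the PABPN IP.

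Glycolytic enzymes, often taken as long-lived housekeeping mRNAs, were set beside the 8 genes. Half-lives were not measured for this list, and its median Input TPM was 162, beside 76.5 for the 6 filtered genes. Of 17 listed, 16 passed, and 13 of them had a higher EPKM with PABPC and 2 with PABPN, beside 56.4% and 37.4% of the background. In TPM, 9 were higher and 1 was lower than the median gene in the PABPC IP over the PABPN IP, beside 29.9% and 31.1%, with a list median of 0.78 beside -0.30 for the 6 filtered genes. LDHB was at 1.66, with an EPKM of 0.125 with PABPC and 0 with PABPN. PGK1 was the largest exception in EPKM, with 0.210 with PABPC and 0.614 with PABPN. In the PABPN IP over the Input, 11 of the 16 were lower than the median gene, beside 20.6% of the background, as MYC was among the 8.

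Proteins that bind AU-rich elements were also listed. Of these 11 genes, 10 passed, with 6 higher in EPKM with PABPC and 4 with PABPN, beside 56.4% and 37.4% of the background. KHSRP, a decay-promoting protein, had 0.497 with PABPC and 0.0407 with PABPN. ELAVL1, a stabilising protein, had 0.138 and 0.136, almost the same in both. ZFP36, which is itself an immediate early gene, failed the filter with a TPM of 1.41 with PABPC and 3.55 with PABPN and was listed at an EPKM of 0.0468 in the PABPN IP alone, as FOS was. Genes of the ZFP36 family stand on both this list and the list of other short-lived mRNAs.

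**Figure D5:**
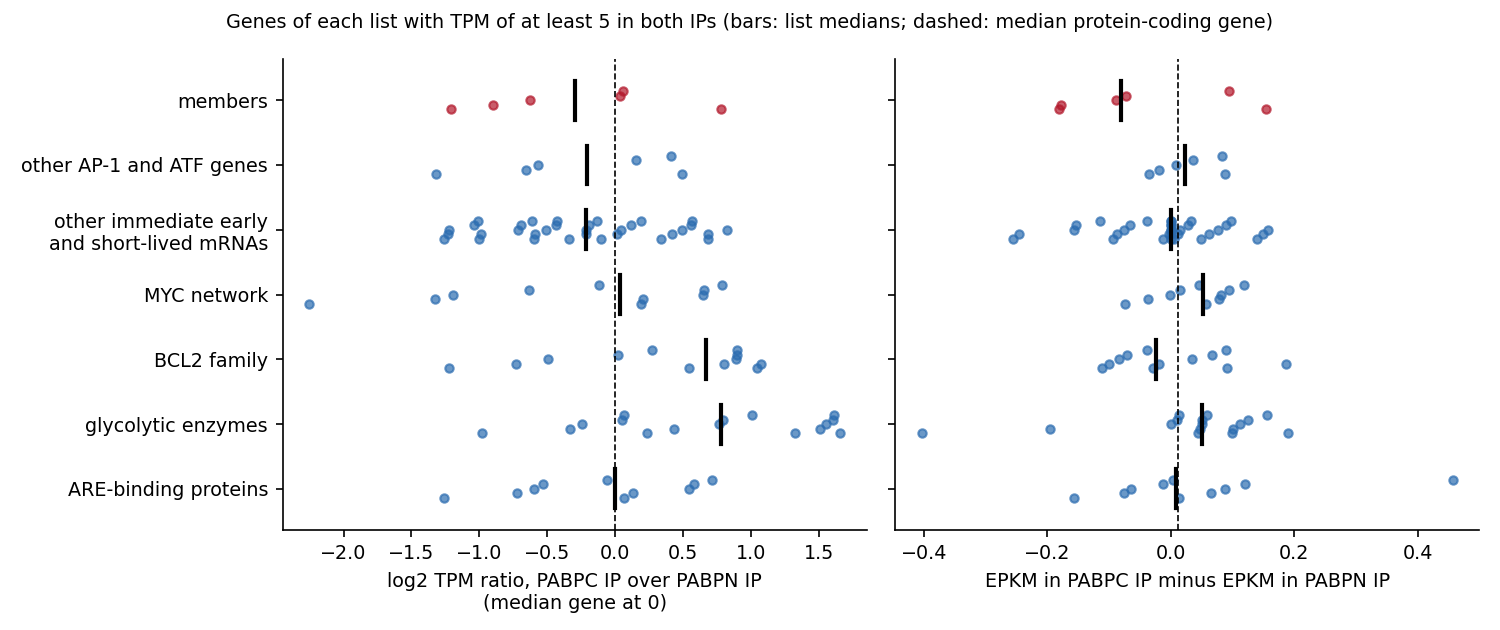
Each point is a gene past the TPM filter, with its log2 TPM ratio of the PABPC IP over the PABPN IP (left) and its EPKM in the PABPC IP minus that in the PABPN IP (right). Black bars are list medians and dashed lines the median protein-coding gene. The 6 filtered members (red) have medians of -0.30 and -0.0805 EPKM, and glycolytic enzymes have a median TPM ratio of 0.78.

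Sequence features were set beside the same measures over the background. The 889 genes with a nonamer in the 3′ UTR, the feature of FOS, had a median log2 TPM ratio of -0.40 in the PABPC IP over the PABPN IP, and those without it had 0.04. The 2539 genes with no pentamer, the class of IER2, had a median of 0.42, while IER2 itself was at -0.90. The 201 genes of 1 exon, the class of the JUN genes, had a median of -0.11. Genes with a nonamer also had longer 3′ UTRs, with a median of 3109 bases against 1228 without it. The 845 genes with 5 or more pentamers per kilobase, as FOS has, had short 3′ UTRs with a median of 777 bases and a median ratio of -0.02. The 3233 genes with 5 or more pentamers had a median of 3150 bases and a ratio of -0.32. The parts of motif and length in these ratios were not tested. In EPKM, 38.8% of the nonamer genes and 33.2% of the genes without a pentamer were higher in the PABPN IP, beside the 37.4% of the background.

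The background genes most like each of the 8 were found by the distance over 5 values, which were log2(EPKM + 0.01) in the 3 fractions and the log2 TPM ratios of both IPs to the Input. JUN was nearest to WNK1 (distance 0.488) and CDK12 (0.490), JUNB to MTERF3 (0.321) and GPBP1 (0.336), and JUND to MED10 (0.166) and POLR3K (0.195). FOS was nearest to SLC27A2 (0.222) and ZNF143 (0.228), and EGR1 to LRSAM1 (0.363) and TBC1D15 (0.448). IER2 was nearest to ISL2 (0.589) and C19orf44 (0.638), MYC to NUP88 (0.300) and TKFC (0.444), and MCL1 to PCBP1 (0.638) and C18orf21 (0.645). No gene among the 8 was among the 2 nearest of another. Within the 8, FOS and EGR1 were nearest to each other at 1.06, JUNB and IER2 at 1.62, and JUND and MYC at 2.93. JUN was nearest to IER2 at 2.56, and MCL1 was farthest from any other, at 3.88 from JUN. Each of the 8 genes therefore lay closer to 2 background genes than to any other of the 8, out of a far larger choice of candidates.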

How the data were processed

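Reads were aligned by the authors with STAR to hg38, counted with featureCounts 2.0.2 on an annotation made from GENCODE without regions shared by overlapping genes, and deposited as average TPM per fraction, the sum of exonic and intronic TPM. The deposited EPKM is a control-subtracted signal that is never below 0. How replicates were combined, which samples entered each average and which fraction gave the control are not given in the sources used here. The paper describes a cytoplasmic lysate, and the labels state no fractionation. The paper gives the lowest and the average read number over these libraries but none per fraction, so depth per fraction is unknown. The pooled columns allow no test. The number of unmapped value columns was 0.

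Log2 TPM ratios used a pseudocount of 0.5 TPM, were centred on the median of the background and counted past 0.5. Genes named from lists are among the up to 3 highest and 3 lowest of each list in TPM ratio or EPKM difference between the IPs; NEAT1, MALAT1, PAX2, LHX1, APOA1 and ZFP36 were named from the lists after their values were seen. Of the planned cell type markers, 1 is not reported. Members and lists were chosen with earlier results of these data known. Transcripts came from GENCODE release 44. On simulated data with large changes and little noise, the ratio code recovered the changes put in. This checked the code and not the noise of the real values. Calculations used pandas 2.3.3, NumPy 2.4.6 and SciPy 1.17.1 under Python 3.11.15, and plots matplotlib 3.10.9. Alternatives changed the centring, pseudocount, thresholds, filter, summary and transcript.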

Additional observations from a re-analysis of the deposited data

How the results depend on the processing

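No paired analysis was possible because the deposited table pools replicates, and leaving out replicates was not run for the same reason. A count or value was taken as unmoved within a factor of 1.5, since no error is known. Of 113 recomputed counts and summaries 78 were unmoved. For editing, a 2-fold threshold on log2(EPKM + 0.1) left 1 gene higher with PABPC and 2 with PABPN. Among genes above 0 in both IPs, an alternative added after seeing the data, 0 were higher with PABPC and 3 with PABPN. Among genes past the TPM filter, also added, 2 and 4 were. Per 100 TPM, added as well, the JUN difference of the PABPC IP minus the PABPN IP turned to 0.00733. Means were 0.0443 EPKM in the Input and 0.0420 with PABPC. Medians over genes above 0 were 0.0838 in the Input, 0.0636 with PABPC and 0.112 with PABPN. Without centring, 8 genes were higher and 0 lower in the PABPN IP over the Input, where MYC was at 0.54. In the PABPC IP over the Input 4 were higher and 0 lower, with JUN at 0.12, FOS at 0.39, EGR1 at 0.37 and MYC at 0.41. Other centring sets (all genes with a biotype, protein-coding genes with a TPM of at least 1, every protein-coding gene) each gave 2 lower in the PABPN IP over the Input. The set with a TPM of at least 1 gave 2 lower, and every protein-coding gene gave 1 lower, in the PABPC IP over the Input. In the PABPC IP over the PABPN IP, 3 were lower with every protein-coding gene and 4 with the set with a TPM of at least 1. A threshold of 1 left 0 higher and 0 lower in the PABPN IP over the Input, 0 lower in the PABPC IP over the Input, and 0 higher and 1 lower between the IPs. A pseudocount of 0.1 TPM gave 2 higher in the PABPN IP over the Input. With a TPM of at least 1, and with every listed gene alike, 4 other AP-1 and ATF genes were higher in EPKM with PABPN and 4 with PABPC, and 1 was higher and 5 lower in TPM between the IPs. With the same filters 19 and 23 other short-lived mRNAs were higher in EPKM with PABPN, while 14 and 15 were higher with PABPC. In the BCL2 family 8 genes were higher with PABPC under both. The longest transcript moved none of 5 structure summaries. Fewer or more genes entered under these filters, and otherwise the cause was not tested. Limits are that each value is 1 pooled number, that edit counts and the depth of each fraction are unknown, and that listed zeros carry much of the difference between the IPs.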
